A study of Bos taurus with 30 samples.

Results

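Skin of tick-resistant cattle was compared with skin of tick-susceptible cattle 24 h after tick infestation, over 12 of the 30 arrays of the series. The animals belonged to an F2 population, the second generation of a cross between Gyr (Bos indicus) and Holstein (Bos taurus), and the labels call 6 of the 12 resistant and 6 susceptible. Members were taken by title: every array labelled as 24 h skin of either phenotype, with all 24016 non-control probe sets. The biopsies came from the sites where ticks fed, so both groups carry the infestation, and each array is 1 biopsy of 1 animal. Another 8 arrays taken before infestation (0 h) and 10 taken at 48 h gave the values set beside the 24 h ones. The susceptible arrays at 0 h came from animals 09, 10 and 11 only, and animals 08 and 12 have a 24 h array only. How resistance was scored, the tick species, and the sex and age of the animals are not given in the sources used here. The resistant arrays are written R01 to R06 and the susceptible ones S08 to S13, after the animal numbers in the titles.

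A tick cuts through the epidermis into the dermis, opens small vessels and feeds from the wound for days while its saliva acts on clotting, itch and immunity. Zebu cattle such as the Gyr generally carry fewer ticks than European breeds such as the Holstein, and the trait is inherited. Host skin answers attachment through keratinocytes, which close the wound and release alarm signals, through dermal vessels, which let leukocytes leave the blood, and through resident mast cells, macrophages and dendritic cells. The comparison at 24 h asks how the skin of the animals differed early in the feeding of the ticks.

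The tissue was skin by its markers. On the 12 arrays KRT5 and KRT14, keratins of the basal epidermis, read 13.3 to 14.7 and 12.01 to 14.51 log2 units, DSG1 of the desmosomes read 12.95 to 14.14, and the dermal genes COL3A1 and DCN read 12.8 to 15.5 and 14.4 to 14.9. KRT1 was not matched to a probe set. Haemoglobin and other red cell genes gave 0 measured genes of the 13 written. Array medians lay between 7.17 and 7.36, and no pair of arrays was identical. An array correlated with the others of its own group at a median r of 0.928 to 0.948 among resistant and 0.917 to 0.928 among susceptible animals. S08, S11 and S13 had a higher median r with the resistant arrays (0.947, 0.938 and 0.943) than with their own group (0.917, 0.928 and 0.917), and S10 (0.9193 against 0.9183) and R04 (0.9309 against 0.93) also had a slightly higher median r with the other group. The signal at the 3' end of 6 endogenous transcripts exceeded that at the 5' end by 1.93 ± 0.30 (SD, n = 6) log2 units in resistant and 1.90 ± 0.63 (SD, n = 6) in susceptible arrays, with S11 highest at 2.87 and S10 and S09 lowest at 1.17 and 1.399.

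XIST, the RNA that coats the inactive X chromosome of female cells, split the arrays. One of its probe sets read 11.98 to 12.49 in R01, R02, R03, R06, S08, S11 and S13 and 1.03 to 4.22 in R04, R05, S09, S10 and S12. XIST was thus high in 4 of 6 resistant and 3 of 6 susceptible arrays. Fits within arrays of high or of low XIST were chosen after the data were seen. They are given beside some of the results they move, so a value without them is not thereby steady. Of 8 animal numbers with both a 24 h and a 0 h array, 2 (03 and 05, both resistant) switched between high and low XIST, and of 9 with a 24 h and a 48 h array, 0 did. Comparisons of phenotypes do not use the animal number, so that mismatch touches only the values that do.

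No probe set passed the test at 24 h. Of 13809 probe sets kept, 0 (0%) had a limma adjusted p under 0.05, and the smallest adjusted p was 0.747. At an unadjusted p under 0.05 there were 608 probe sets (4.4%), of which 286 (2.07%) were higher and 322 (2.33%) lower in resistant skin. Counted once per gene, 145 of 7016 genes (2.07%) were higher and 142 (2.02%) lower at that level. The median difference was -0.0019 over probe sets and 0.01 over genes, with 53.3% of genes higher and 46.7% lower. The median standard error (SE) was 0.18, and the unadjusted 95% interval reached a median of 0.37 to each side. Its reach was under 1 log2 unit, which is a doubling, for 96.8% of probe sets. That does not mean that such a change would pass adjustment. In simulated data 69 of 100 changes of that size had an adjusted p under 0.05. Of the probe sets, 72 were higher by at least 1 log2 unit and 39 lower, and 35 and 13 of these had an unadjusted p under 0.05. Every difference below is resistant minus susceptible, so a negative value means a lower level in resistant skin, and every gene named had an adjusted p (limma) between 0.82 and 0.996.

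**Figure D1:**
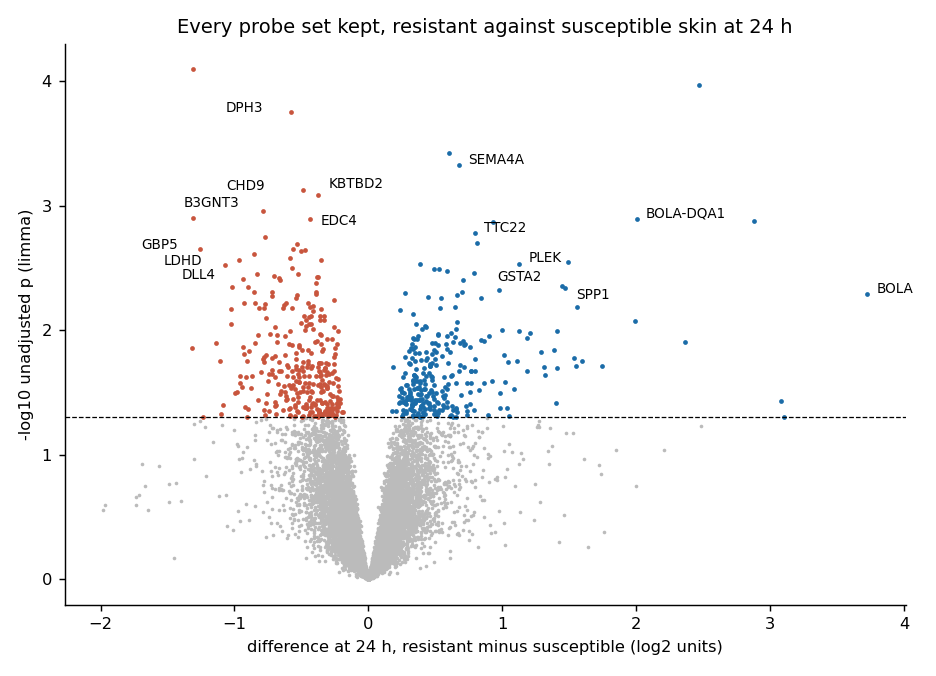
Each point is 1 of 13809 probe sets, placed by its log2 difference between resistant and susceptible skin at 24 h (horizontal) and by -log10 of its unadjusted limma p (vertical); the dashed line marks an unadjusted level of 0.05. Blue points (286) were higher and red points (322) lower in resistant skin at an unadjusted p under 0.05, and 0 points passed after adjustment; the highest points without a name have no single gene symbol.

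The 2 probe sets with the smallest p have no gene symbol here, and they differed by -1.31 ± 0.28 and 2.47 ± 0.55 (SE). Next was DPH3, which encodes an electron carrier protein needed to make diphthamide, the modified histidine of elongation factor EEF2. Its signal ran from 8.74 to 9.36, with a median of 9.01, in resistant skin, and from 9.32 to 9.75, with a median of 9.67, in susceptible skin. The groups overlapped by 1 pair of arrays, R05 (9.36) lying just above S09 (9.32). The difference was -0.58 ± 0.13 (SE), a 1.49-fold lower level, at an unadjusted p of 0.000178. Of the other 2 DPH3 probe sets, the dimmer gave -0.65 ± 0.29 (SE) and the brighter -0.05 ± 0.20 (SE), so the probe sets disagreed on the size. In the list of diphthamide and elongation genes 3 of 16 were higher and 13 lower, 1 of them (DPH3) at an unadjusted p under 0.05, with a median of only -0.02.

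In 23 probe sets (0.167%) the 6 resistant and the 6 susceptible arrays did not overlap, 11 (0.0797%) being higher and 12 (0.0869%) lower in resistant skin. CHD9, a chromatin remodelling enzyme, was among the lower ones. It ran from 10.33 to 10.77 in resistant skin (median 10.48) and from 10.79 to 11.46 in susceptible skin (median 10.90). The gap between the groups was narrow, and S12 stood highest. The difference was -0.49 ± 0.13 (SE), and at 0 h and 48 h it was -0.05 ± 0.16 and -0.04 ± 0.14 (SE). Of 21 chromatin remodellers measured, 10 were higher and 11 lower, with CHD9 alone at an unadjusted p under 0.05 and a median of -0.02.

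PIGN, an enzyme of the endoplasmic reticulum that modifies the glycolipid anchors of surface proteins, was lower at all 3 times. By its brighter probe set it ran from 7.81 to 8.52 in resistant skin at 24 h (median 8.23) and from 8.57 to 9.16 in susceptible skin (median 8.80). The groups did not overlap. The difference was -0.63 ± 0.21 (SE) at 24 h, and it was -0.97 ± 0.27 before infestation and -0.81 ± 0.23 at 48 h, from partly the same animals. The other probe set gave -0.53 ± 0.16 (SE), with -0.42 ± 0.20 and -0.58 ± 0.17 at the earlier and the later time. Other genes with a symbol whose arrays did not overlap were named after their values were seen. SF3B1, SRSF6, RUNDC1, ATAD1 and COPS8 were among the lower ones, and ZCCHC17, EXOSC10, AGO2, PGLS and C23H6orf89 among the higher ones. Further probe sets of SF3B1 gave -0.22, 0.11 and 0.16, and that of ATAD1 gave 0.05.

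SEMA4A, a membrane semaphorin that binds receptors on endothelial and immune cells, had the smallest p among named genes with a higher level in resistant skin. Its signal ran from 7.30 to 8.37 in resistant skin (median 7.87) and from 6.77 to 7.67 in susceptible skin (median 7.31). R03 (7.30) lay within the susceptible range, and S08 (7.67) was the highest susceptible array. The difference was 0.68 ± 0.17 (SE), with 0.20 within arrays of high XIST and 1.36 within those of low XIST, against -0.27 ± 0.22 before infestation and -0.03 ± 0.19 at 48 h. It was thereby also the named gene with the smallest p for the 24 h difference minus the 0 h one (0.95, unadjusted p = 0.00193), a contrast in which 0 probe sets passed. Of 10 semaphorins, plexins and neuropilins 2 were higher and 8 lower, with a median of -0.15. SEMA3B, a secreted semaphorin, was 1 of the lower ones at -0.85 ± 0.32 (SE).

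TRIM2, a ubiquitin ligase, ran from 9.10 to 9.96 in resistant skin (median 9.70) and from 8.57 to 9.05 in susceptible skin (median 8.98). The groups did not overlap, and the difference was 0.70 ± 0.23 (SE). Its 2 other probe sets gave 0.24 ± 0.14 and 0.38 ± 0.24 (SE). RDH10, a retinol dehydrogenase of the retinoic acid pathway, did not overlap either, at 8.10 to 8.59 against 7.33 to 8.10, and differed by 0.49 ± 0.15 (SE). SPP1 (osteopontin, a secreted matrix protein and cytokine) ran from 9.82 to 10.79 (median 10.57) in resistant and from 7.28 to 10.54 (median 9.01) in susceptible skin. S13 and S08 reached the resistant range, and S12 was lowest at 7.28. SPP1 differed by 1.47 ± 0.48 (SE), with 0.64 within arrays of high XIST and 2.18 within those of low XIST, beside -0.87 ± 0.61 before infestation and -0.95 ± 0.52 at 48 h. GSTA2, a glutathione transferase that detoxifies lipid peroxides, differed by 1.44 ± 0.47 (SE), with S13 at the lower end of the resistant range, and its 4 other probe sets gave 0.16 to 1.41.

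The remaining genes of the 12 with the smallest p that were higher in resistant skin were TTC22 (0.80), PLEK (1.13), INTS14 (0.39), GPC4 (0.59), ALCAM (0.79), MKKS (0.71) and BOLA-DQA1. PLEK encodes pleckstrin, a protein kinase C substrate of platelets and leukocytes. ALCAM is a cell adhesion molecule, and it ran from 8.16 to 8.94 in resistant and 7.56 to 8.24 in susceptible skin. Among the 12 on the lower side, besides DPH3, CHD9 and PIGN, were KBTBD2 (-0.37), B3GNT3 (-0.79), EDC4 (-0.44), GBP5 (-1.26), NEIL2 (-0.51), PTPRR (-0.86), LDHD (-1.07), TMEM44 (-0.83) and PLCG1 (-0.38). B3GNT3 extends mucin-type sugar chains, EDC4 is a scaffold of mRNA decapping, NEIL2 a DNA repair glycosylase and PLCG1 the phospholipase C downstream of receptor kinases. For 9 of these 24 genes other probe sets had been kept, and the second MKKS probe set had the opposite sign (-0.13 ± 0.21 SE). The second EDC4 probe set gave only -0.11 ± 0.19 (SE).

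**Figure D2:**
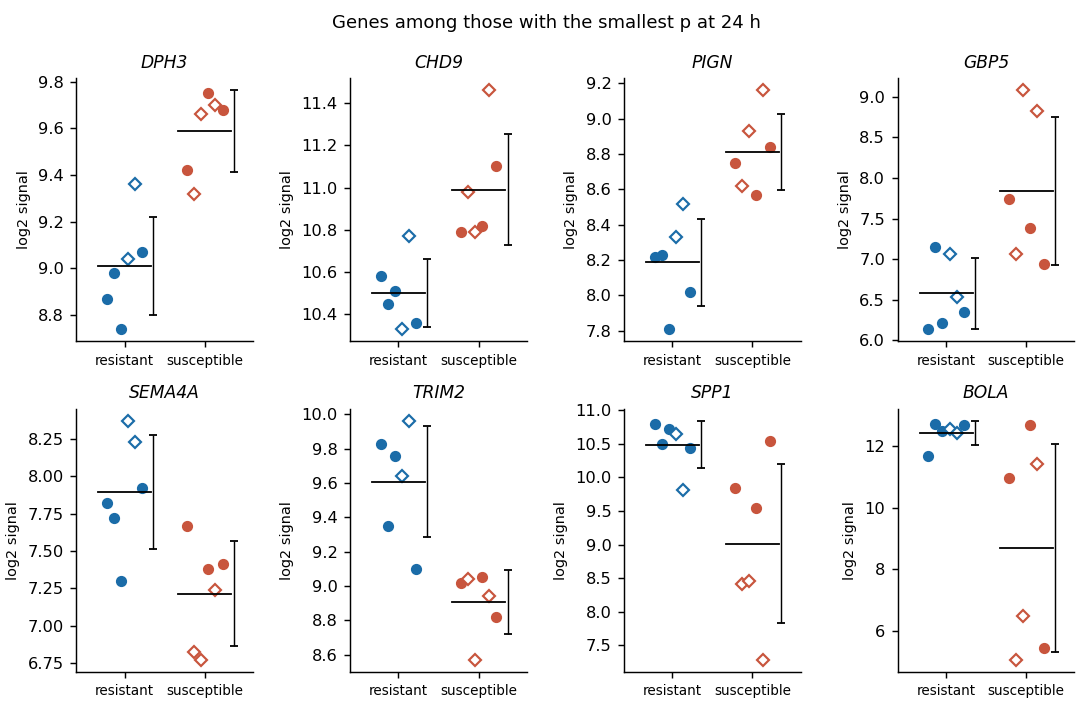
Log2 signal of 8 genes in the 6 resistant (blue) and 6 susceptible (red) animals at 24 h; filled circles are arrays with high XIST, open diamonds arrays with low XIST, the line is the mean and the bar 1 SD to each side. CHD9, PIGN (brighter probe set) and TRIM2 do not overlap between groups, and BOLA is spread from 5.07 to 12.7 among susceptible animals.

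Genes of blood vessels were lower on average in resistant skin. Of 19 measured endothelial genes 2 were higher and 17 lower, 6 of the lower ones at an unadjusted p under 0.05 against 2.02% of all genes, and the median was -0.44 against 0.01 over all genes. Before infestation the list was already 3 higher and 16 lower, with a median of -0.36. At 48 h it was 6 higher and 13 lower, with a median of -0.13. In bulk tissue, fewer cells of a type and less RNA per cell cannot be told apart. TEK, the angiopoietin receptor of endothelium, ran from 9.01 to 9.68 in resistant skin (median 9.25) and from 9.19 to 10.98 in susceptible skin (median 10.08). S12, S09 and S10 stood above every resistant array, S11 did by less, and S08 and S13 lay within the resistant range. The difference was -0.72 ± 0.24 (SE) at an unadjusted p of 0.00533, beside -0.53 ± 0.30 at 0 h and -0.12 ± 0.26 at 48 h.

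PECAM1, the adhesion molecule of endothelial junctions through which leukocytes pass, showed the same order among the 6 susceptible arrays. It ran from 10.07 to 11.08 in resistant skin (median 10.56) and from 10.43 to 11.90 in susceptible skin (median 11.34). S12, S09 and S10 were highest, and S13 and S08 lay among the resistant arrays. The difference was -0.62 ± 0.23 (SE), with -0.14 within arrays of high XIST and -1.10 within those of low XIST. EMCN (endomucin, a sialoglycoprotein of capillaries and veins) differed by -0.70 ± 0.27, PLVAP (the diaphragm protein of fenestrated capillaries) by -0.48 ± 0.20, CLDN5 (the tight junction claudin of endothelium) by -0.58 ± 0.25 and CDH5 (vascular cadherin) by -0.44 ± 0.26 (SE). TIE1, the orphan partner of TEK, was 1 of the 2 that were higher, at 0.55 ± 0.58 (SE), with S11 (3.83) and S13 (4.21) far below the other 10 arrays, and it was 0.045 without S11.

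Among angiogenic signals 3 of 17 were higher and 14 lower, with a median of -0.15, or -0.068 without S10. At an unadjusted p under 0.05 were 2 of the lower ones, DLL4 and VEGFC. VEGFC is also 1 of the 6 endothelial genes counted at that level. DLL4, the Notch ligand of sprouting tip cells, ran from 5.74 to 7.59 in resistant skin (median 7.34) and from 7.29 to 9.08 in susceptible skin (median 7.83). R06 was lowest and S10 highest, and S08 was the one susceptible array within the resistant range. DLL4 differed by -0.93 ± 0.30 and VEGFC, a growth factor of lymphatic vessels, by -0.50 ± 0.24 (SE). Leukocyte adhesion genes were 5 higher and 11 lower of 16, with a median of -0.10, or 0.001 without R03. Smooth muscle and pericyte genes, which surround vessels, were 7 higher and 8 lower of 15 with a median of 0.00, where 0 of 15 had been higher at 0 h.

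Keratinocyte genes lay the other way. Of 11 basal keratinocyte genes 9 were higher and 2 lower in resistant skin, 2 of the higher ones at an unadjusted p under 0.05, with a median of 0.25. KRT14, the keratin of basal cells, ran from 13.94 to 14.51 in resistant skin (median 14.26) and from 12.01 to 14.31 in susceptible skin (median 13.36). The susceptible arrays fell into separate ranges, S08, S11 and S13 at 14.17 to 14.31 and S09, S10 and S12 at 12.01 to 12.56. The difference was 0.98 ± 0.46 (SE), beside 0.01 ± 0.58 before infestation and -0.68 ± 0.51 at 48 h. S08 and S12 have no array at those times, so the sets of susceptible animals differ.

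KRT15, a keratin of basal and hair follicle stem cells, ran from 11.05 to 12.18 in resistant skin (median 11.86) and from 9.39 to 11.86 in susceptible skin (median 10.64). Again S12, S10 and S09 were lowest, below every resistant array. The difference was 1.09 ± 0.47 (SE), and 0.37 within arrays of high XIST. COL17A1, the hemidesmosome collagen that anchors basal cells, differed by 0.69 ± 0.38 (SE) on its brighter probe set, where S09, S10 and S12 were again lowest (9.83 to 10.29, against 11.22 to 11.87 in the other susceptible arrays). Its dimmer probe set did not overlap between groups, with medians of 7.67 and 6.80, and differed by 0.90 ± 0.33 (SE). KRT5, the partner of KRT14, differed by 0.45 ± 0.29 (SE).

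Epidermal differentiation genes were 7 higher and 2 lower of 9 with a median of 0.28, and 0 had an unadjusted p under 0.05; the median was 0.12 without S12 and -0.096 within arrays of high XIST. Wound-response genes of keratinocytes were 8 higher and 2 lower of 10, with a median of 0.24 (0.13 without S12) and 1 in each direction at that level. KRT6B, a keratin made by wounded epidermis, was the higher one, at 10.29 to 12.54 (median 11.10) in resistant and 7.13 to 11.35 (median 10.08) in susceptible skin. S12 was lowest, S10 and S09 followed, and S08, S11 and S13 lay within the resistant range. The difference was 1.39 ± 0.53 (SE), with 0.86 without S12 and 0.25 within arrays of high XIST. KRT17, another wound keratin, differed by 0.63 ± 0.38 (SE). S100A9, a calgranulin of neutrophils and stressed keratinocytes, was the lower one at -0.59 ± 0.29 (SE), and its second probe set gave -0.05 ± 0.46 (SE). S100A8, another calgranulin, differed by 0.38 ± 0.38 (SE).

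**Figure D3:**
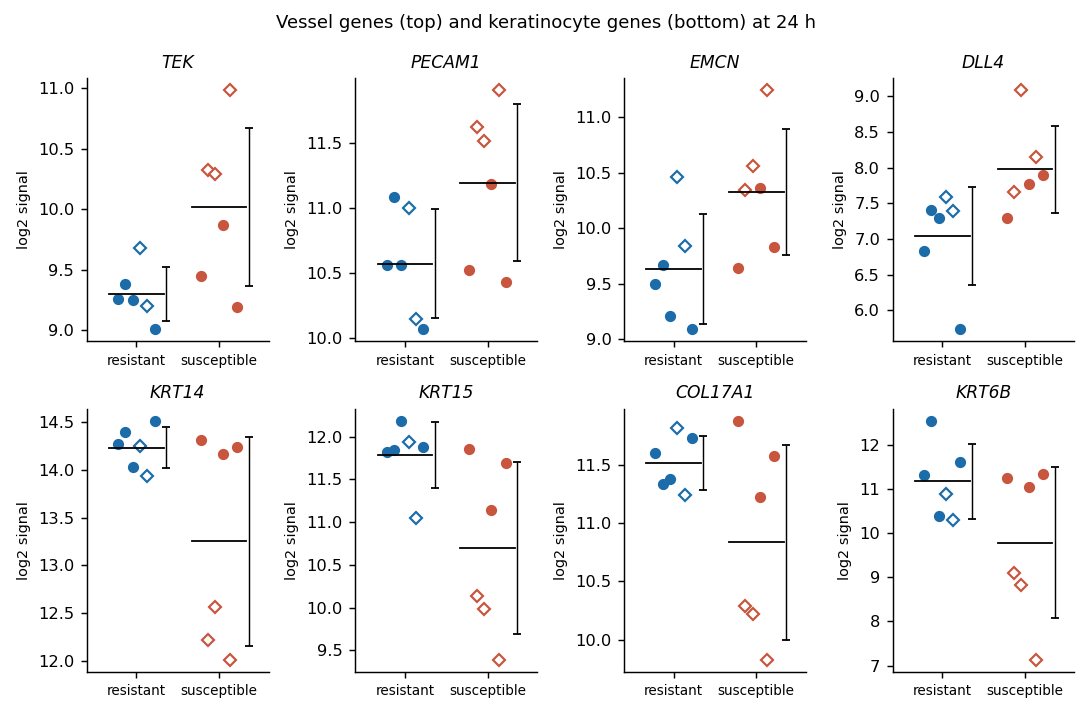
Log2 signal of 4 vessel genes (top) and 4 keratinocyte genes (bottom; COL17A1 on its brighter probe set) in the 12 animals at 24 h; filled circles are arrays with high XIST, open diamonds arrays with low XIST, the line is the mean and the bar 1 SD to each side. For KRT14 the susceptible arrays with high XIST read 14.17 to 14.31 and those with low XIST 12.01 to 12.56, while the resistant arrays of both kinds read 13.94 to 14.51.

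The vessel and keratinocyte differences were largest in the same 3 susceptible animals, and these were the 3 with low XIST. With each gene centred over the 12 arrays, the endothelial list averaged 0.46 in S09, 0.48 in S10 and 0.89 in S12, against -0.22 in S08, 0.01 in S11 and -0.44 in S13. The basal keratinocyte list averaged -0.40, -0.38 and -0.62 in S09, S10 and S12, against 0.23, 0.02 and 0.15 in S08, S11 and S13. Resistant arrays ran from -0.64 to 0.30 for the endothelial list and from -0.08 to 0.32 for the keratinocyte list. The resistant arrays with low XIST did not lie together, R04 being at 0.30 and 0.32 and R05 at -0.26 and -0.08. Across the 12 arrays these list means share their library and its scaling, so they are given as a description only.

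Within arrays of high XIST the endothelial median was -0.14 and the basal keratinocyte median 0.06, and within arrays of low XIST they were -0.67 and 0.42. For KRT14 the difference was 0.06 among arrays of high XIST and 1.83 among those of low XIST, and for TEK it was -0.28 and -1.09. With XIST as a term in the fit of all arrays the list medians were -0.40 and 0.24, and without S12, the array nearest to deciding them, -0.29 and 0.10. The splits leave 2 resistant against 3 susceptible arrays with low XIST. Among the 6 susceptible arrays XIST and both lists moved together, and why was not tested. Of the 3 arrays, S10 and S09 also had the lowest 3' to 5' differences of the 12, and S12 had 2.28. With the 3' to 5' difference as a term in the fit of all arrays the list medians were -0.44 and 0.25.

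**Figure D4:**
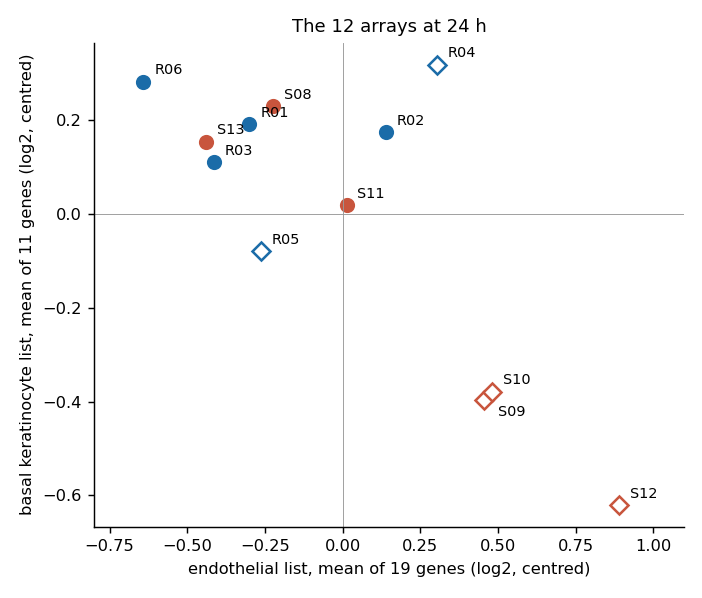
Each point is 1 array at 24 h, placed by the mean of 19 endothelial genes (horizontal) and of 11 basal keratinocyte genes (vertical), each gene centred over the 12 arrays, in log2 units; blue is resistant, red susceptible, filled circles high XIST and open diamonds low XIST. S09, S10 and S12 lie apart at 0.46 to 0.89 and -0.62 to -0.38, and S08, S11 and S13 lie among the resistant arrays.

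Skin appendages and fat varied widely between animals. Sebaceous gland and lipid genes were 9 higher and 5 lower of 14, with a median of 0.22, or 0.091 without R03. CIDEA, a lipid droplet protein abundant in sebaceous cells, ran from 6.01 to 10.69 in resistant (median 9.19) and from 5.32 to 9.71 in susceptible skin (median 6.85). The groups overlapped throughout, with R04 low and S08 high. It differed by 1.75 ± 0.70 (SE), and FAR2, an enzyme of wax synthesis, by 1.72 ± 1.08 (SE). Sweat gland genes were 8 higher and 0 lower of 8, with a median of 0.21 and 0 at an unadjusted p under 0.05, and the median was 0.060 without S09 and -0.20 within arrays of high XIST. Adipocyte genes were 2 higher and 8 lower of 10, with 2 of the lower ones at that level and a median of -0.37, which was -0.20 without S09 and -0.046 within arrays of high XIST.

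LIPE, the hormone-sensitive lipase of fat cells, differed by -0.57 ± 0.19 (SE). CD36, a fatty acid transporter of fat cells and capillaries, differed by -0.997 ± 0.441 (SE), with S12, S09 and S10 highest at 10.08 to 10.94. Melanocyte genes were 2 higher and 7 lower of 9, with a median of -0.37, or -0.22 without R01. PMEL, a melanosome protein, differed by -1.49 ± 1.07 and TYR, the enzyme that starts melanin synthesis, by -1.67 ± 1.21 (SE). R06 was lowest for both, at 6.43 and 3.12, and without it the differences were -0.65 and -0.84.

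Fibroblast and collagen genes were 14 higher and 12 lower of 26, with a median of 0.04. POSTN, a matrix protein of healing and type 2 inflammation, was the member with an unadjusted p under 0.05. It ran from 8.52 to 10.55 in resistant (median 8.85) and from 5.89 to 8.93 in susceptible skin (median 7.40). S08 reached the resistant range, S13 lay at its lower edge, R04 stood highest and S12 lowest. The difference was 1.54 ± 0.60 (SE), and 0.48 within arrays of high XIST. L1CAM, a nerve adhesion molecule, differed by -0.90 ± 0.29 (SE), with S12 highest at 8.37. The other 2 nerve and Schwann genes measured, MBP and S100B, did not share this, at 0.12 ± 0.18 and 0.01 ± 0.17 (SE).

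Macrophage and T cell lists had medians near 0 at 24 h. Of 17 monocyte and macrophage genes 9 were higher and 8 lower with a median of 0.09, and 0 had an unadjusted p under 0.05. The median was 0.31 within arrays of high XIST and -0.19 within those of low XIST. C1QC, a chain of complement C1q made by macrophages, ran from 7.90 to 8.86 in resistant and from 7.80 to 8.67 in susceptible skin. The groups overlapped almost wholly, and the difference was 0.20 ± 0.32 (SE), or 0.099 without R02, with a 95% interval of -0.44 to 0.85. At 48 h the same comparison gave 1.67 ± 0.35 (SE), and the 24 h difference minus the 48 h one was -1.47 at an unadjusted p of 0.00409.

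T cell and natural killer genes were 5 higher and 7 lower of 12 (median -0.07), B cell and plasma cell genes 5 higher and 1 lower of 6 (0.38), and neutrophil genes 4 higher and 3 lower of 7 (0.00). The B cell median was 0.19 without S09. All 5 measured mast cell, basophil and eosinophil genes had a higher mean in resistant skin, with a median of 0.14, which was 0.001 without R04, and a second probe set of KIT, a member of that list, gave -0.31 ± 0.33 (SE). TPSB2, a mast cell tryptase, was 1 of them at 0.64 ± 0.59 (SE), or 0.29 without S11, against 2.08 ± 0.65 at 48 h, and read 6.12 at the median of the susceptible group, below the array medians. These lists had 0 genes at an unadjusted p under 0.05 at 24 h apart from S100A9, which the neutrophil list shares. LTF and S100A8 of the neutrophil list were higher, at 1.27 ± 0.63 and 0.38 ± 0.38 (SE).

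Of the innate mediators CCL3, SAA3 and IL33, only CCL3 had an unadjusted p under 0.05. CCL3, a chemokine that attracts monocytes and other leukocytes, ran from 6.11 to 7.57 in resistant skin (median 7.32) and from 7.25 to 8.74 in susceptible skin (median 8.11). S09 was the one susceptible array within the resistant range. CCL3 differed by -0.93 ± 0.31 (SE), while its second probe set gave 0.17 ± 0.39 (SE). SAA3, an acute phase protein made in skin, differed by -1.26 ± 0.62 (SE), with -0.62 within arrays of high XIST and -2.32 within those of low XIST. IL33, the alarm cytokine of epithelium and endothelium, differed by -0.90 ± 0.51 (SE), with -0.16 and -1.75 in the same splits. Its other probe sets gave -0.05 ± 0.66 and -0.49 ± 0.39 (SE). At 0 h and 48 h IL33 differed by -1.08 ± 0.65 and -1.38 ± 0.56 (SE). Inflammatory cytokines as a list were 9 higher and 7 lower of 16, with a median of 0.05. PTX3 of that list was higher, at 0.55 ± 0.32 (SE). The type 2 and type 17 list, which holds IL33, was 5 higher and 3 lower of 8, with a median of 0.01. CCL26 of that list differed by 0.61 ± 0.51 (SE).

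Complement genes were 6 higher and 13 lower of 19, with a median of -0.05 at 24 h and 0.83 at 48 h. The 24 h median was 0.35 within arrays of high XIST and -0.47 within those of low XIST. CFI, the protease that inactivates C3b, was the member with an unadjusted p under 0.05, at 5.02 to 6.87 (median 5.95) in resistant and 6.33 to 8.14 (median 7.05) in susceptible skin. S10, S12 and S09 stood above all resistant arrays. CFI differed by -1.14 ± 0.43 (SE), at a level below the array medians in resistant skin. Oxidative burst and defence genes were 16 higher and 6 lower of 22, with a median of 0.10, or 0.048 without R03. CYBA, the membrane subunit of the phagocyte NADPH oxidase, differed by 0.36 ± 0.17 (SE), with 0.25 ± 0.21 before infestation and 1.07 ± 0.18 at 48 h.

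Genes that interferons induce were mostly lower, without passing the test. The interferon-gamma list was 2 higher and 7 lower of 9 with a median of -0.25, beside -0.80 at 0 h and 0.00 at 48 h. GBP5, a guanylate-binding protein that interferon-gamma induces, ran from 6.14 to 7.15 in resistant skin (median 6.44) and from 6.94 to 9.08 in susceptible skin (median 7.57). S10 and S12 stood highest, and S13 and S09 lay within the resistant range. The difference was -1.26 ± 0.37 (SE), and a second probe set gave -0.90 ± 0.42 (SE) with S10 at 10.17.

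At the other times GBP5 differed by -0.92 ± 0.47 (0 h) and -0.99 ± 0.41 (48 h; SE). CXCL10, a chemokine that attracts T cells, differed by -0.58 ± 0.51 (SE), with S10 highest at 9.17, and by -0.09 without S10. The type I interferon list was 4 higher and 15 lower of 19, with a median of -0.13 and 0 genes at an unadjusted p under 0.05; the median was -0.042 without S12 and 0.08 within arrays of high XIST. MX1, an antiviral GTPase, was 1 of the lower ones at -0.47 ± 0.26 (SE), or -0.27 without S10. Without S10 the interferon-gamma median was 0.01, so its sign rested on that animal. It was 0.23 within arrays of high XIST and -0.62 within those of low XIST.

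Genes of the bovine major histocompatibility complex present peptides to T cells and vary in sequence between animals, and 1 of them gave the largest difference of a named gene. BOLA, read by a class I probe set, was 11.66 to 12.72 in resistant skin (median 12.51) and 5.07 to 12.69 in susceptible skin (median 8.73). S09, S13 and S10 read 5.07, 5.47 and 6.50, below the array medians, while S11, S12 and S08 read 10.96 to 12.69. BOLA differed by 3.73 ± 1.23 (SE), with 3.73 ± 1.55 before infestation and 5.45 ± 1.35 at 48 h, and 98.5% of its variance over the 30 arrays lay between animal numbers. The median of that share over the probe sets kept was 47.6%, and 1.57% of probe sets had 80% or more. The class I list held 6 higher and 7 lower genes of 13 and had a median of 0.00.

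BOLA-DQA1, a class II chain, ran from 6.72 to 7.88 in resistant skin (median 7.13) and from 3.61 to 6.82 in susceptible skin (median 5.15). S08, S10 and S12 read 3.61 to 3.80, and S09, S11 and S13 read 6.50 to 6.82, so that S09 overlapped the lowest resistant array. The difference was 2.01 ± 0.56 (SE) on this probe set and 1.31 ± 0.53 on the other, and 88.2% of the variance lay between animal numbers. A probe set that does not match an animal's allele reads low whatever the RNA level, which these arrays cannot tell apart from a low level. Class II genes as a list were 4 higher and 8 lower of 12, with a median of -0.07 beside -0.51 at 0 h and 0.51 at 48 h.

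Metabolic and growth genes showed small shifts. Of 75 oxidative phosphorylation genes 64 were higher and 11 lower, but the median was 0.09 (0.055 without R03) and 0 had an unadjusted p under 0.05. Hypoxia and glycolysis genes were 15 higher and 8 lower of 23, with a median of 0.07, or 0.017 without R04. SLC2A1, the glucose carrier GLUT1, differed by 1.19 ± 0.49 (SE), with R01 and R04 highest at 10.95 and 11.16 and S12 and S09 lowest. GAPDH, a glycolytic enzyme often taken as a stable reference, differed by 0.27 ± 0.11 (SE), and by 0.21 ± 0.14 at 0 h and 0.44 ± 0.12 at 48 h. Cell cycle genes were 22 higher and 5 lower of 27 (median 0.11), ribosomal protein genes 30 higher and 32 lower of 62 (0.00), and immediate early and heat shock genes 9 higher and 20 lower of 29 (-0.12). The cell cycle median was 0.025 without R06, and the immediate early one -0.026 without S10.

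The comparison at 24 h was set beside those at 0 h and 48 h, which share animals with it, but not S08 and S12. The sets of susceptible animals thus differ between the times. In a direct contrast, 0 of 13809 probe sets (0%) passed for the 24 h difference minus the 0 h one, with 255 (1.85%) at an unadjusted p under 0.05 and a smallest adjusted p (limma) of 0.9999. For the 24 h difference minus the 48 h one 0 (0%) passed, with 724 (5.24%) at an unadjusted p under 0.05 and a smallest adjusted p (limma) of 0.921. The named genes with the smallest p in the first contrast, after SEMA4A, were USP28 (0.92), SPICE1 (0.67) and MFF (1.31). They were lower at 0 h in resistant skin (-0.67, -0.37 and -0.87) and higher at 24 h (0.25, 0.30 and 0.44). A second, brighter MFF probe set gave 0.003 ± 0.13 (SE) at 24 h.

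In the second contrast the named genes with the smallest p were ANP32E (0.72), CHST7 (0.98), VAMP3 (-0.49) and TCOF1 (0.58). ANP32E, a histone chaperone, differed by 0.32 ± 0.12 (SE) at 24 h and -0.41 ± 0.13 at 48 h. The other probe sets of CHST7 and TCOF1 had the opposite sign at 24 h. Of the 17 macrophage genes, 13 had an unadjusted p under 0.05 in this contrast, as did 8 of 19 complement genes, both with the smaller difference at 24 h. Basal keratinocyte genes had medians of -0.18, 0.25 and -0.50 in the order of the 3 times, and 5 of 11 were at that level in the second contrast. At 24 h their mean was lowest in S12, which has no array at the other times.

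**Figure D5:**
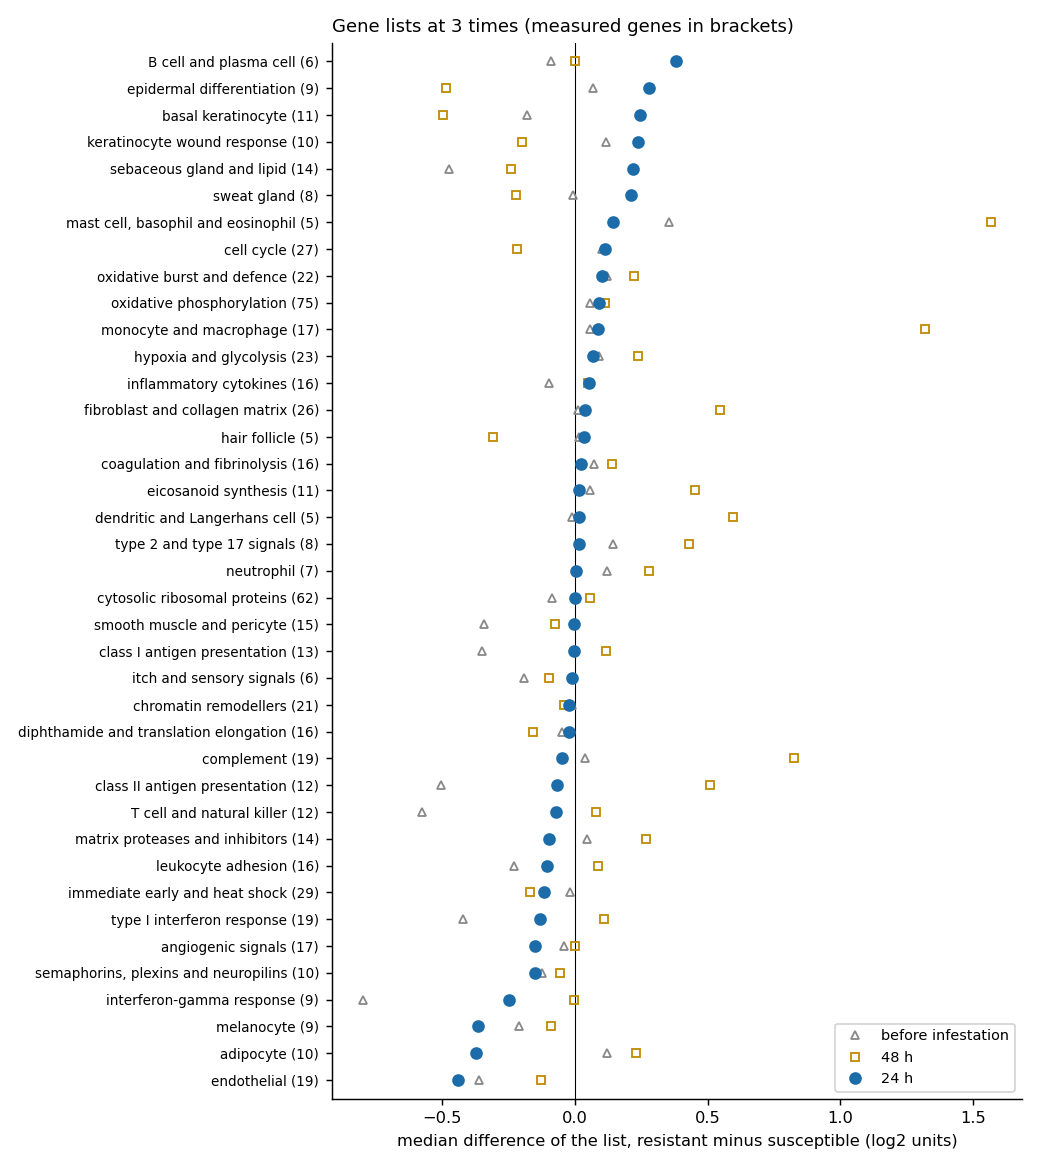
Median log2 difference, resistant minus susceptible, of 39 gene lists with at least 5 measured genes (number in brackets), ordered by the value at 24 h (blue circles), with the values before infestation (grey triangles) and at 48 h (open squares). At 24 h the medians lie between -0.44 (endothelial) and 0.38 (B cell and plasma cell, 0.19 without S09), and the macrophage and mast cell lists, at 0.09 and 0.14, lie at 1.32 and 1.57 at 48 h.

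Animals within a group also differed. The median SD over probe sets was 0.28 in resistant and 0.30 in susceptible skin, and it was larger among susceptible animals for 7759 probe sets and among resistant ones for 6045. Beside XIST and the BOLA genes, the named genes with the widest range were BANP, HSPA1A, STMN2 and ATP6V0D2. HSPA1A, the inducible heat shock protein HSP70, read 12.02 to 14.79 in 11 animals and 4.24 in S10 on its widest probe set, while the other probe sets of the gene did not all show this. STMN2, a neuronal microtubule protein, ran from 1.95 to 11.06 in resistant and from 1.61 to 7.40 in susceptible skin, with medians of 7.34 and 3.91. BANP read 11.19 in S10 and at most 4.63 in the other 11 animals, which is below the array medians, on its widest probe set. The other BANP probe set kept averaged 8.55 ± 0.23 in resistant and 8.79 ± 0.47 in susceptible skin (SD, n = 6 each).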

How the data were processed

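Total RNA from skin biopsies was amplified from 50 ng and biotin labelled for an Affymetrix bovine array, per the labels' protocols. MAS5 gave the log2 signals that the authors deposited, per the submitters' processing notes; in linear form each array had a trimmed mean of 500.0. Builds and scan dates are not given in the sources used here. Precision is limited by the number of arrays.

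After removal of 112 control probe sets from 24128, those at or above the array median in at least 3 arrays were kept (13809). Of the non-control probe sets 13292 had 1 gene symbol, 86 several and 10638 none, from the platform annotation; 13263 matched a gene in the RefSeq table. A gene in a list was represented by its kept probe set with the highest mean (7016 genes). With limma 3.58.1 a model of 6 groups (phenotype by time) was fitted to the 30 arrays (lmFit, eBayes with an intensity trend; R 4.3.3), two-sided, with Benjamini-Hochberg adjustment over the probe sets kept and a threshold of 0.05. It was tested on simulated data, drawn as independent normal values. Of 100 probe sets given a change of 1 log2 unit 69 were called, and of 100 given 2 units 95. Among the unchanged ones 9 were called. Nothing says that the biopsies were replicated beyond 1 per animal and time.

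The comparison and the 45 gene lists were chosen with earlier results of these data known, so lists are described by counts and medians without a test. Named were the 12 genes in each direction with the smallest p, the 3 of each list as far as described, symbols that separate the groups by at least 1 log2 unit (none), the 8 widest ranges and the 4 with the smallest p in each contrast with another time. PLVAP, CLDN5, CDH5, TIE1, KRT5 and further probe sets were added after their values were seen. Resistant and susceptible animals share no number, so the comparison is unpaired. Alternatives were other scalings, filters, fits and arrays left out. The splits by XIST and an exchange of 2 animal numbers at 0 h were added after seeing the data. Plots were drawn with matplotlib 3.10.9.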

Additional observations from a re-analysis of the deposited data

Results flagged for a closer look

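Groups of 6 arrays were taken over the genes named. In 14 of 158 groups (8.86%) 1 array stood apart from the other 5 by more than 0.625 of the whole range. Chance flags about 1 group in 20 where groups are not picked by their values. HSPA1A, BOLA-DQA5 and ATP6V0D2 were named for their wide range on these same arrays, so the share cannot be weighed against that rate. R05 and S10 had 3 flags each. R05 read low for SPP1 (9.82, the other 5 at 10.44 to 10.79), KRT15 (11.05, the others at 11.82 to 12.18) and CCL3 (6.11, the others at 7.18 to 7.57). S10 read high for PLEK (7.28, the others at 5.54 to 6.11) and BOLA-DQA5 (11.51, the others at 3.24 to 5.33) and low for HSPA1A (4.24, the others at 13.03 to 14.79).

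S08 stood apart for FAR2 (10.87, the others at 5.80 to 6.70) and SAA3 (10.92, the others at 12.19 to 12.93). R04 was high for POSTN (10.55, the others at 8.52 to 8.99) and BOLA-DQA5 (9.88, the others at 4.17 to 4.79). R02 was high for LIPE (9.05), S12 for L1CAM (8.37), and R01 was low for ANP32E (8.73). R06 read 1.32 for ATP6V0D2, a subunit of the proton pump, where the other resistant arrays read 6.52 to 8.82, and R06 was also lowest for PMEL and TYR.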

How the results depend on the processing

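Of 26 other settings, 25 called 0 probe sets at 24 h; the fit of arrays with low XIST alone called 1 (1.83, limma adjusted p = 0.0411, no symbol). The 608 of 13809 probe sets at an unadjusted p under 0.05 became 1056 of 24016 with no filter. Over the same 13809 they were 1182 with low XIST alone and 474 with high XIST alone. With 1 array left out they were 404 (without S12) to 904 (without S08). With the animal number as a random replicate block they were 612, and 607 with the 0 h numbers 03 and 05 exchanged. Without the filter the probe sets whose groups do not overlap were 40 of 24016, against 23 of 13809. Of 39 list medians 12 kept their sign in every setting, among them the endothelial, basal keratinocyte, adipocyte and angiogenic lists; the melanocyte median was 0.70 with low XIST alone. Of 64 genes followed, 13 changed sign. With high XIST alone COL17A1 was -0.040, CD36 0.13, CXCL10 0.081, CDH5 0.0022 and KRT5 -0.0195. With low XIST alone FAR2 was -0.42, PMEL 1.05, TYR 0.73, C1QC -0.19, CYBA -0.18, TIE1 -0.76 and DPH3 on its dimmest probe set 0.13; DPH3 on its remaining probe set ran from -0.17 (without S12) to 0.0069 (without S13). Low XIST at 24 h means 2 resistant against 3 susceptible arrays. Probe sets below the array median carry little signal over background.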
